A study of Mus musculus with 25 samples.

Results

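Metallothioneins are small proteins that bind zinc and copper through their many cysteines. Mt1, Mt2 and Mt3, the genes described here, are 3 of 47729 genes in a count table of mouse brain, and were taken by their Ensembl identifiers. All 3 were among the 17799 genes that passed a filter on low counts. The samples were total RNA of brain hemispheres of male C57BL/6 mice aged 2, 9, 15, 24 and 30 months, with 5 libraries at each age and 25 in all. No treatment or allele is given in the labels, and all mice share strain and sex. The titles carry a different number for each sample, and replicates are numbered here in accession order. Nothing else in the labels says how the samples were taken, so the p-values measure the spread between these libraries.

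Mt1 and Mt2 are the inducible pair of the family. They are switched on by zinc and other metals through the transcription factor Mtf1, which binds metal response elements in their promoters, and also by glucocorticoids, oxidative stress and cytokine signals. Mt3 is the brain-enriched member, found in neurons and astrocytes, and is known to respond much less to metals. In brain, Mt1 and Mt2 are made largely by astrocytes, and Mt3 takes part in the handling of zinc that neurons release. Because each library is a whole hemisphere, fewer cells of a type and less RNA per cell cannot be told apart.

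The genes lie in 1 cluster on the forward strand of chromosome 8 (GRCm38). Mt3 (ENSMUSG00000031760) spans 94152607 to 94154146, Mt2 (ENSMUSG00000031762) spans 94172664 to 94173568 and Mt1 (ENSMUSG00000031765) spans 94179082 to 94180327. Each of the first listed transcripts has 3 exons, and these transcripts are 549 bases long for Mt1, 511 for Mt2 and 536 for Mt3. The coding sequences are printed because the composition of these genes bears on how they were measured. They are shown from start codon to stop codon, with the cysteine codons (TGC or TGT) in capitals.
Mt1: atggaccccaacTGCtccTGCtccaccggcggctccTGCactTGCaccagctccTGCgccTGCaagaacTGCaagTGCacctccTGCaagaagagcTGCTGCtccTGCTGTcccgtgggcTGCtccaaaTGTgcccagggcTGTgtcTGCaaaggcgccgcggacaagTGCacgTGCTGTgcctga
Mt2: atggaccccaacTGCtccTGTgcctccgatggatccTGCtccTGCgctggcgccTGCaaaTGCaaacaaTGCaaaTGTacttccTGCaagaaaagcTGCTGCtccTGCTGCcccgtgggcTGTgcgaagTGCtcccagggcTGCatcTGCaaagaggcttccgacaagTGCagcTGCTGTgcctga
Mt3: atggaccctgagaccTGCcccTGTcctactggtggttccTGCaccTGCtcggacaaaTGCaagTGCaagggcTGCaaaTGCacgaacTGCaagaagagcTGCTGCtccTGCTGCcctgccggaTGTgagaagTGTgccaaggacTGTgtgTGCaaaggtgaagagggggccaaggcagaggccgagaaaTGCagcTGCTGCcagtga

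Each coding sequence holds 20 cysteine codons. These are 32.8% of the 61 codons of Mt1, 32.8% of the 61 codons of Mt2 and 29.4% of the 68 codons of Mt3. Mt3 is known for an acidic insert near its C-terminal end that the other members lack. Mt1 and Mt2 were identical at 148 of 186 aligned coding bases (79.6%). Mt3 was identical to Mt1 at 135 of 207 aligned columns (65.2%) and to Mt2 at 140 of 207 (67.6%). The longest run of bases that a pair of the transcripts shared was 20 for Mt1 with Mt2, 27 for Mt1 with Mt3 and 20 for Mt2 with Mt3. The read length is not given in the sources used here, so how well reads were told apart between the members is not known. The longest transcript of Mt3 is 62.3% G and C, at percentile 98.5 of 15224 protein-coding genes tested. Mt1, at 52.9%, is at percentile 65.2 and Mt2, at 55.6%, is at percentile 79.3. The longest transcript of Mt1 is not the 549-base transcript listed above, which is 58.1% G and C.

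The promoters are shown because the members differ in the number of letter matches to the metal response element near their annotated starts. The 250 bases before each gene's RefSeq start (GRCm38.p6, forward strand) are given, with matches to the core of the metal response element in capitals. The letters searched were TGCACNC and TGCGCNC on both strands.
Mt1, chr8:94178839-94179088: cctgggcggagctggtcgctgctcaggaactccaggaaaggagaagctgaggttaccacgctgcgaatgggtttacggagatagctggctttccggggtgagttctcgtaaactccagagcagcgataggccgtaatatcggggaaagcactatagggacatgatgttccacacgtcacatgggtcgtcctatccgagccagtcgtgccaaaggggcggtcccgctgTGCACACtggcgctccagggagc
Mt2, chr8:94172368-94172617: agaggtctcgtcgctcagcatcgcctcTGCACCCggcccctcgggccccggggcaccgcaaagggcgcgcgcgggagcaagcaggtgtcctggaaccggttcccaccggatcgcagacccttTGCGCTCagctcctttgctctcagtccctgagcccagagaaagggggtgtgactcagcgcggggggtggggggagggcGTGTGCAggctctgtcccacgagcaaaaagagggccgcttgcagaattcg
Mt3, chr8:94152357-94152606: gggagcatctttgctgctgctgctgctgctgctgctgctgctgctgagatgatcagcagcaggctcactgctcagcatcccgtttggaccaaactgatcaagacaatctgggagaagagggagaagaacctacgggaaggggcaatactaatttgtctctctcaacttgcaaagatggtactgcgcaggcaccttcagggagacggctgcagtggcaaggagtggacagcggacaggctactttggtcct

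The search window also took in the first 50 bases after the start, which makes 300 bases. In that window Mt2 held 4 matches, 3 of them before the start. Mt1 held 3, with 1 before the start, and Mt3 held 1, which lay after the start. The other matches of Mt1 lay 3 and 21 bases after the start, so the split depends on where the start is annotated. Bases past the window were not searched. Among 32851 promoters of the same length, 25.7% held at least 1 match, 7.11% at least 2, 1.97% at least 3 and 0.517% at least 4. The Mt2 promoter also held 1 match to the letters TGACNNNGC of the antioxidant response element (TGACTCAGC, on the same strand). Matches to those letters were found in 12.4% of promoters and in neither of the other members. A match is a stretch of letters and no measurement of binding, and the lack of one says only that these letters are not in the window.

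The fourth gene of the cluster, Mt4 (chromosome 8, 94137197 to 94139031), is known for its place in stratified epithelium. It had 0 to 10 counts per library with a median of 2, and 16 of 25 libraries were at or under 3 counts. It did not pass the filter and was not tested. The annotation also places an antisense gene, Gm45774, over Mt2, and the strand setting of the counting is not given in the sources used here. Gm45774 is not in the count table and was not analysed here. Without strand its reads and those of Mt2 could not be told apart.

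The libraries held 17800113 to 31261121 counts. Replicates 2 to 5 at 30 months stood apart from the other 21 libraries in base composition. The GC gap is the median log2 deviation of the 10% of genes richest in G and C minus that of the poorest 10%, measured from the mean of the 2- to 24-month libraries. It was 1.12 to 2.05 in those 4 libraries and -0.25 to 0.16 in the other 21, among them replicate 1 at 30 months at 0.13. At 15 months it was -0.25 to -0.09 and at 24 months 0.06 to 0.16, so these ages did not overlap either. In the replicates 2 to 5, genes of the GC content of Mt1 sat 0.10 to 0.25 higher on the log2 scale by the fitted curve. The same curve gave 0.15 to 0.40 for Mt2 and 0.22 to 0.63 for Mt3. The fit without these 4 libraries is called the 21-library fit, and the tests of the members are given with and without them. At 30 months it keeps 1 library, whose spread is taken to be that of the younger ages. Neuron markers (12 of 12) and astrocyte markers (15 of 15) had counts in all 25 libraries, the latter with summed medians between 7323 and 7973 CPM at the 5 ages, where CPM is the count scaled by the library total and a TMM factor. Liver markers, which do not belong in brain, had summed medians of 18.6 CPM at 2 months, 25.8 at 9 months, 131 at 15 months, 263 at 24 months and 30.0 at 30 months.

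All 3 members were well measured, with 1237 to 4500 counts of Mt1 per library. By mean CPM over the 25 libraries Mt3 ranked 1704 of 17799 genes at 133.9 CPM, Mt1 ranked 2326 at 103.6 CPM and Mt2 ranked 4112 at 57.8 CPM. Per kilobase of transcript the order of levels was Mt3, Mt1, Mt2. Mt3 was above Mt1 per kilobase in 24 of 25 libraries, the exception being 1 library at 30 months at a ratio of 0.992. Mt1 was above Mt2 per kilobase in 25 of 25 libraries, at 1.32 to 2.11 times its level. At 2 months the mean levels were 230 CPM per kilobase for Mt3, 168 for Mt1 and 113 for Mt2.

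Across the ages from 2 to 24 months each member had its lowest mean CPM at 15 months and its highest at 24 months. Mt1 was 92.3 ± 20.1 CPM at 2 months (SD, n = 5), 96.1 ± 15.2 at 9 months, 73.0 ± 3.88 at 15 months and 111.9 ± 9.75 at 24 months. Mt2 was 57.6 ± 7.33 CPM at 2 months (SD, n = 5), 52.1 ± 10.9 at 9 months, 37.8 ± 1.56 at 15 months and 74.6 ± 8.72 at 24 months. Mt3 was 123.4 ± 11.1 CPM at 2 months (SD, n = 5), 122.7 ± 15.1 at 9 months, 113.5 ± 5.31 at 15 months and 153.4 ± 9.66 at 24 months. With the fitted GC curve taken off, its means were 128.7, 126.4, 127.5 and 155.5 CPM at these ages, so the lowest was no longer at 15 months. Mt1 and Mt2 were still lowest at 15 months on that scale, at 76.0 and 40.5 CPM. The spread was smallest at 15 months for each member. At 30 months the means were 144.7 ± 49.1 CPM for Mt1, 66.9 ± 21.1 for Mt2 and 156.5 ± 36.6 for Mt3 (SD, n = 5), the widest spreads of any age.

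**Figure D1:**
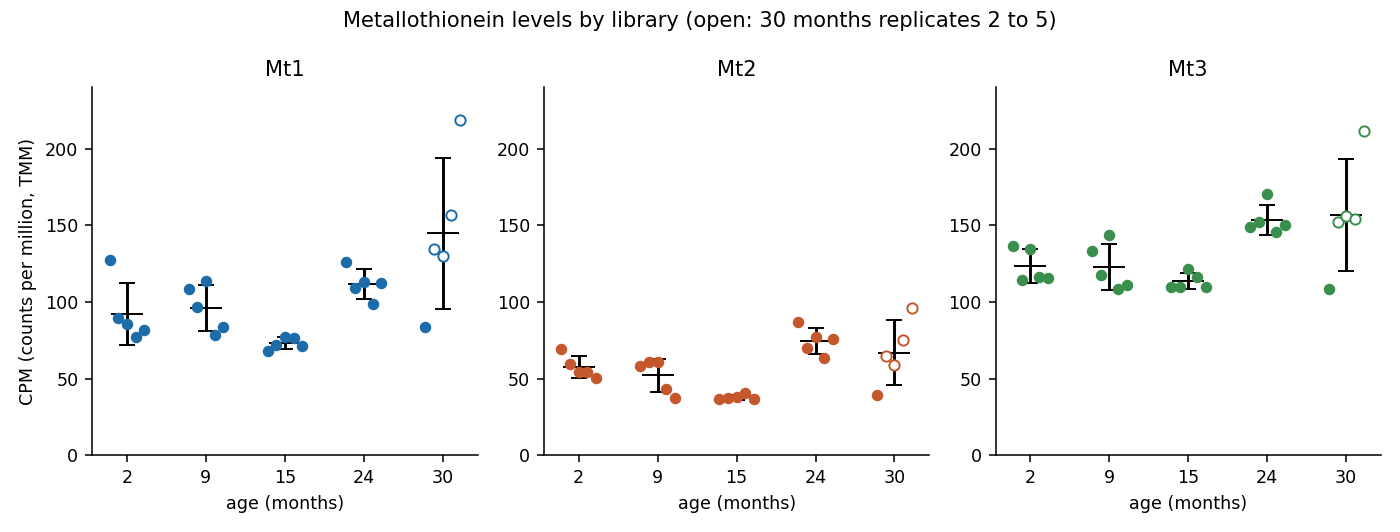
CPM of Mt1, Mt2 and Mt3 (vertical axes) in each library by age in months, with the mean (bar) and SD of 5 libraries; open points are replicates 2 to 5 at 30 months. The 24-month libraries of each member lie above all 15-month libraries, and replicate 1 at 30 months is the lowest of its age for each member.

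In an edgeR quasi-likelihood test of any difference among the 5 ages, all 3 members passed an adjusted p of 0.05. The Benjamini-Hochberg adjusted p, over all genes tested, was 0.000292 for Mt1, 0.00021 for Mt2 and 0.00145 for Mt3. So did 68.1% of all genes tested, a share that the 30-month libraries enter. Over 21 libraries the adjusted p was 0.0115 for Mt1, 0.000189 for Mt2 and 0.00136 for Mt3, where 42.9% of genes passed. Ordered by mean CPM, the ages of Mt1 ran 30, 24, 9, 2, 15 and the libraries of each pair of neighbours overlapped. Those of Mt2 ran 24, 30, 2, 9, 15, again with overlap between all neighbours. Those of Mt3 ran 30, 24, 2, 9, 15, and here the 24-month libraries lay above all 2-month libraries while the other neighbours overlapped.

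The comparison of 24 with 15 months held the clearest difference. Mt2 read 36.7, 37.2, 38.0, 40.5 and 36.7 CPM in the libraries of 15 months. At 24 months it read 87.0, 69.9, 76.9, 63.5 and 75.6 CPM. The ages did not overlap, and the mean was 1.97 times as high at 24 months. Mt2 rose by a log2 fold change of 0.98 ± 0.16 (SE), with an adjusted p of 0.00745 by edgeR's quasi-likelihood test. Of all genes, 0.882% passed that test as higher at 24 months. Leaving out each library in turn kept the adjusted p between 0.000956 and 0.0334.

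Mt1 read 67.8, 72.0, 76.9, 76.8 and 71.3 CPM at 15 months. At 24 months it read 125.9, 109.2, 112.9, 98.7 and 112.5 CPM. The lowest 24-month library was above the highest 15-month library, with a mean 1.53 times as high. Its log2 fold change was 0.62 ± 0.17 (SE) and its adjusted p by edgeR 0.0658, which missed the threshold. Mt3 read 110.1, 109.5, 121.5, 116.5 and 110.0 CPM at 15 months. At 24 months it read 148.7, 152.4, 170.2, 145.8 and 150.1 CPM. These libraries did not overlap either, with a mean 1.35 times as high, a log2 fold change of 0.43 ± 0.11 (SE) and an adjusted p by edgeR of 0.0514. Higher without overlap held for 8.55% of all genes in this comparison. Without replicate 1 or replicate 5 at 30 months both members passed, with adjusted p by edgeR as low as 0.0162 for Mt1 and 0.00662 for Mt3.

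In the 21-library fit, whose estimate of spread is free of the 4 libraries that stand apart, all 3 members were higher at 24 than at 15 months. The edgeR adjusted p was 0.00256 for Mt1, 8.34e-05 for Mt2 and 0.000731 for Mt3 and the log2 fold changes were 0.61, 0.98 and 0.43. In that fit 10.7% of all genes passed as higher. The GC gap moved with this comparison, being below 0 at 15 months and above 0 at 24 months in all 10 libraries. With an offset for GC content in each library, the log2 fold change was 0.56 for Mt1 (adjusted p 0.0704 by edgeR), 0.89 for Mt2 (0.00649) and 0.29 for Mt3 (0.0200). Mt3, the member richest in G and C, moved most. The share of all genes called was not computed with this offset. Liver markers also moved with the age, and Mt1 and Mt2 are abundant in liver as background. Alb, which encodes the serum albumin made by liver, was at 7.73 to 91.5 CPM at 15 months and at 38.5 to 171 CPM at 24 months. With the liver markers, Trf among them, as a covariate no call changed. The log2 fold changes were then 0.63 for Mt1, 1.01 for Mt2 and 0.42 for Mt3.

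**Figure D2:**
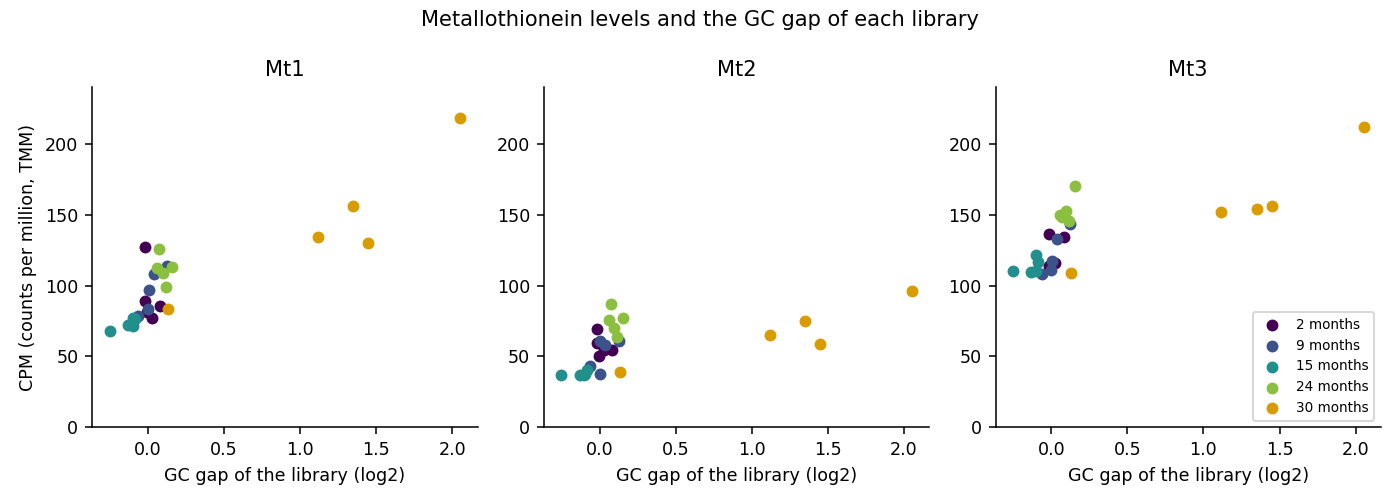
CPM of each member (vertical axes) against the GC gap of the library on a log2 scale, 1 point per library and 1 colour per age. The 4 libraries at 1.12 to 2.05 are replicates 2 to 5 at 30 months; among the other 21 libraries those of 15 months lie left of 0 and those of 24 months right of 0.

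From 2 to 15 months the libraries of Mt2 alone did not overlap, and no member passed edgeR's test over 25 libraries, while DESeq2 called Mt2 (adjusted p 0.0246). Mt2 was 69.4, 59.6, 54.3, 54.3 and 50.6 CPM at 2 months, all above the highest 15-month library at 40.5 CPM. Its log2 fold change from 2 to 15 months was -0.61 ± 0.16 (SE), with an adjusted p of 0.0651 by edgeR, where 1.26% of all genes passed in either direction. Lower without overlap held for 5.78% of all genes. Without replicate 1 or replicate 5 at 30 months Mt2 passed, with an adjusted p as low as 0.0187. The adjusted p was 0.00708 in the 21-library fit, where 11.3% of genes passed. Mt1 at 2 months was 127.2, 89.5, 85.9, 76.9 and 81.7 CPM, which touched the 15-month range, and its log2 fold change was -0.34 ± 0.17 (SE, edgeR adjusted p 0.417). Mt3 had a log2 fold change of -0.12 ± 0.11 (SE, edgeR adjusted p 0.754), which became -0.02 with the GC offset.

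Against 9 months, Mt1 at 15 months was lower in every library. It was 108.3, 96.8, 113.7, 78.5 and 83.4 CPM at 9 months against at most 76.9 CPM at 15 months. Lower without overlap held for 5.06% of genes, and the test over 25 libraries called 0.0169% of genes in either direction. None of the members was among them, nor did DESeq2 or limma-voom call any, while Mt1 and Mt2 had an unadjusted p of 0.0248 and 0.00887 by edgeR. They had log2 fold changes of -0.40 for Mt1, -0.46 for Mt2 and -0.11 for Mt3. In the 21-library fit, which called 9.49%, Mt2 passed with an adjusted p of 0.0343 by edgeR. Mt2 at 9 months was 58.0, 60.9, 60.6, 43.3 and 37.5 CPM, so 1 library of 9 months lay within the 15-month range. Between 2 and 9 months no member passed edgeR's adjusted test, where 2.38% of genes did. DESeq2 and limma-voom also called none, and no member had an unadjusted p under 0.05 by edgeR, where 14% of genes did. The log2 fold changes were 0.06 ± 0.17 for Mt1, -0.15 ± 0.16 for Mt2 and -0.01 ± 0.11 for Mt3 (SE).

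From 2 to 24 months the libraries of Mt3 did not overlap. Mt3 was 136.6, 114.2, 134.4, 116.1 and 115.6 CPM at 2 months, and its lowest 24-month library was at 145.8 CPM. Its log2 fold change was 0.31 ± 0.11 (SE), with an adjusted p of 0.0996 over 25 libraries by edgeR, where 5.23% of genes passed. It was 0.00679 in the 21-library fit, where 20.6% passed, and 0.00655 with the GC offset over 25 libraries. Without replicate 1 or replicate 5 at 30 months it also passed, with an adjusted p as low as 0.0195. Higher without overlap held for 7.01% of genes. Mt2 had a log2 fold change of 0.37 ± 0.16 (SE), with 4 of 5 libraries of 24 months above all of 2 months. Its adjusted p by edgeR was 0.194 over 25 libraries and 0.0394 in the 21-library fit. Mt1 had 0.28 ± 0.17 (SE, edgeR adjusted p 0.385), with overlapping libraries. A straight line over the 20 libraries from 2 to 24 months had slopes of 0.0092 log2 units per month for Mt1, 0.015 for Mt2 and 0.0132 for Mt3. No member passed the test of the slope (edgeR adjusted p 0.436, 0.328 and 0.0508 in that order), while 16.8% of genes did. Its unadjusted p was 0.00854 for Mt3, and DESeq2 and limma-voom called that slope (adjusted p 0.0172 and 0.0268). The slope of Mt3 passed when 1 of 6 single libraries was left out, with an adjusted p as low as 0.0275.

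At 30 months the members split by library. Mt1 was 83.7 CPM in replicate 1 and 134.6, 129.8, 156.5 and 218.6 CPM in replicates 2 to 5. Mt2 was 39.2 CPM in replicate 1 and 64.9, 58.8, 75.1 and 96.4 CPM in the others. Mt3 was 108.8 CPM in replicate 1 and 152.1, 155.9, 154.0 and 211.7 CPM in the others. Replicate 1, whose GC gap matched the younger ages, was thus the lowest library of its age for every member. The library with the highest GC gap, replicate 5, was the highest for every member. With the fitted GC curve taken off, replicate 1 was still the lowest and replicate 5 still the highest for every member. On that scale Mt1 was 84.7 CPM in replicate 1 and 117.9 to 184.2 CPM in replicates 2 to 5. Mt2 was 39.9 CPM against 50.8 to 72.9 CPM, and Mt3 was 108.2 CPM against 122.6 to 136.6 CPM.

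Over all 5 libraries Mt1 rose from 2 to 30 months by a log2 fold change of 0.65 ± 0.17 (SE, edgeR adjusted p 0.00192) and Mt3 by 0.34 ± 0.11 (SE, 0.0105), where 58% of genes passed. Mt2 had 0.21 ± 0.16 (SE, edgeR adjusted p 0.265). With replicate 1 alone at 30 months the log2 fold changes had the opposite sign, at -0.15 for Mt1, -0.56 for Mt2 and -0.19 for Mt3, none past the threshold (edgeR adjusted p 0.770, 0.163 and 0.463), where 8.53% of genes passed. With the GC offset over 25 libraries Mt1 stayed past the threshold at 0.48 (edgeR adjusted p 0.0139), while Mt2 was at -0.04 and Mt3 at -0.05. The offset for Mt1 was taken at the 52.9% GC of its longest transcript, while its 549-base transcript has 58.1%. How this choice bears on the call of Mt1 was not tested. Without replicate 5 at 30 months the edgeR adjusted p of Mt3 was 0.0685. Without replicate 1 at 30 months that of Mt2 was 0.0385, with a log2 fold change of 0.35.

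Against 24 months, no member passed over 25 libraries by edgeR, where 54.5% of genes did. Mt1 had an unadjusted p of 0.0343, and DESeq2 called it (adjusted p 0.0437). With the GC offset over 25 libraries Mt2 (-0.38, edgeR adjusted p 0.0304) and Mt3 (-0.32, 0.000256) passed as lower at 30 months, and Mt1 had 0.22 (0.259). How many of all genes passed with the offset was not computed. Without the offset the log2 fold changes were 0.37 ± 0.17 for Mt1, -0.16 ± 0.16 for Mt2 and 0.03 ± 0.11 for Mt3 (SE). Mt1 passed without replicate 1 at 2 months (edgeR adjusted p 0.0481) and without replicate 1 at 30 months (0.0053). In the 21-library fit, where 3.85% passed, replicate 1 was lower than the 24-month libraries for Mt2 (-0.94, edgeR adjusted p 0.0296) and Mt3 (-0.50, 0.0469). Mt1 had -0.43 there (0.389).

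**Figure D3:**
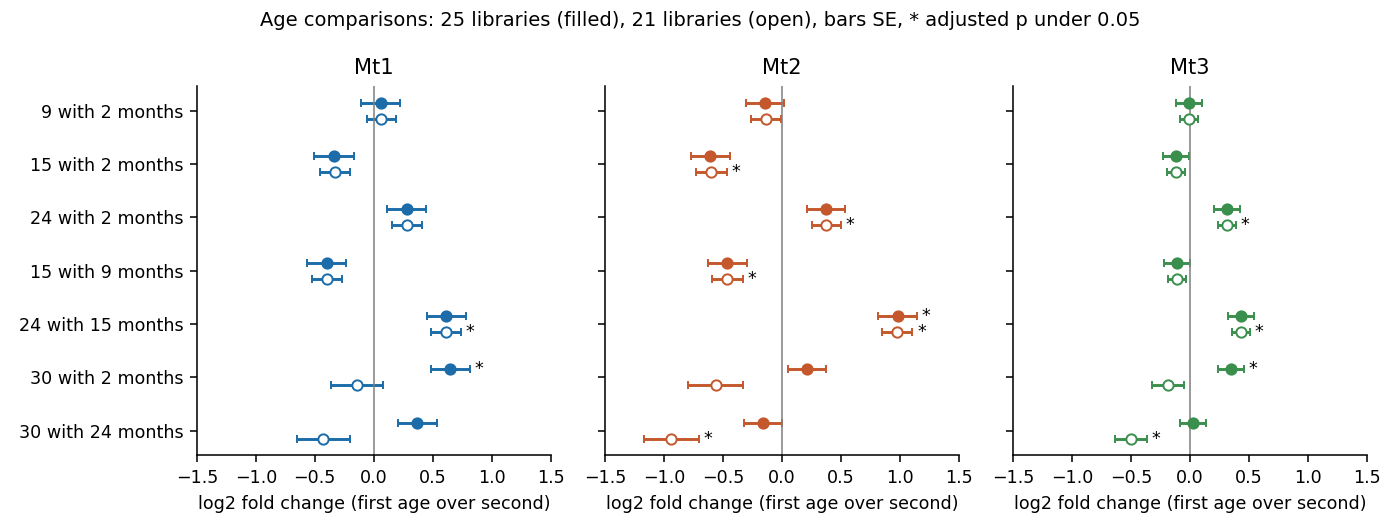
Log2 fold change of each member (horizontal axes, first age over second) in 7 age comparisons, with bars of 1 SE; filled points are the fit over 25 libraries, open points the 21-library fit, and a star marks an adjusted p under 0.05. Comparisons among 2 to 24 months have nearly the same value in both fits, while the open points of 30 months lie below the filled ones for every member.

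The counts of the members did not change by equal amounts, which their ratio within a library shows without any scaling between libraries. Such a ratio keeps any effect of GC content, in which the members differ, and was not computed with the GC offset. In replicate 5 at 30 months the fitted GC curve was 0.25 for Mt1, 0.40 for Mt2 and 0.63 for Mt3. The ratio of Mt1 to Mt2 counts was 1.83, 1.502, 1.58, 1.42 and 1.62 at 2 months. At 9 months it was 1.87, 1.59, 1.88, 1.81 and 2.22. At 15 months it was 1.85, 1.93, 2.03, 1.90 and 1.94, all above the 2-month libraries. At 24 months it was 1.45, 1.56, 1.47, 1.55 and 1.49, all below the 15-month libraries. The highest 9-month library, at 2.22, lay above all libraries of 15 and 24 months and within the 30-month range. At 30 months it was 2.14, 2.07, 2.21, 2.08 and 2.27, above all libraries of 2, 15 and 24 months. Here replicate 1, at 2.14, lay inside the range of the other 4 libraries of its age.

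Of the 8 tests of 2 ratios at 4 older ages against 2 months, 2 passed. On the log2 scale the ratio of Mt1 to Mt2 was higher by 0.28 ± 0.07 (SE, n = 5 and 5) at 15 months and by 0.44 ± 0.07 at 30 months. Each had a two-sided exact permutation p of 0.00794, the smallest that 5 against 5 libraries allow, and 0.0317 after Benjamini-Hochberg adjustment over the 8 tests. The difference was 0.23 ± 0.10 at 9 months (exact permutation, adjusted p 0.102) and -0.08 ± 0.07 at 24 months (0.392). Without any 1 library the values were 0.24 to 0.34 at 15 months and 0.40 to 0.49 at 30 months, with adjusted p of 0.0423 to 0.0635, where 4 against 5 libraries cannot give so small a p. At 15 months the ratio was high with both members low, and at 24 months it was low with both high. At 9 months its mean was 1.87, near the 1.93 of 15 months, with Mt1 at a mean of 96.1 CPM and Mt2 at 52.1 CPM. At 30 months it was high in the library with low levels and in the 4 libraries with high levels alike.

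The ratio of Mt3 to Mt1 counts was 1.37 ± 0.197 at 2 months, 1.28 ± 0.0708 at 9 months, 1.56 ± 0.0444 at 15 months, 1.38 ± 0.130 at 24 months and 1.12 ± 0.141 at 30 months (SD, n = 5). None of its 4 comparisons with 2 months passed (exact permutation, adjusted p 0.102 to 0.881). At 30 months it was 1.30 in replicate 1 and 0.969 to 1.20 in replicates 2 to 5.

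**Figure D4:**
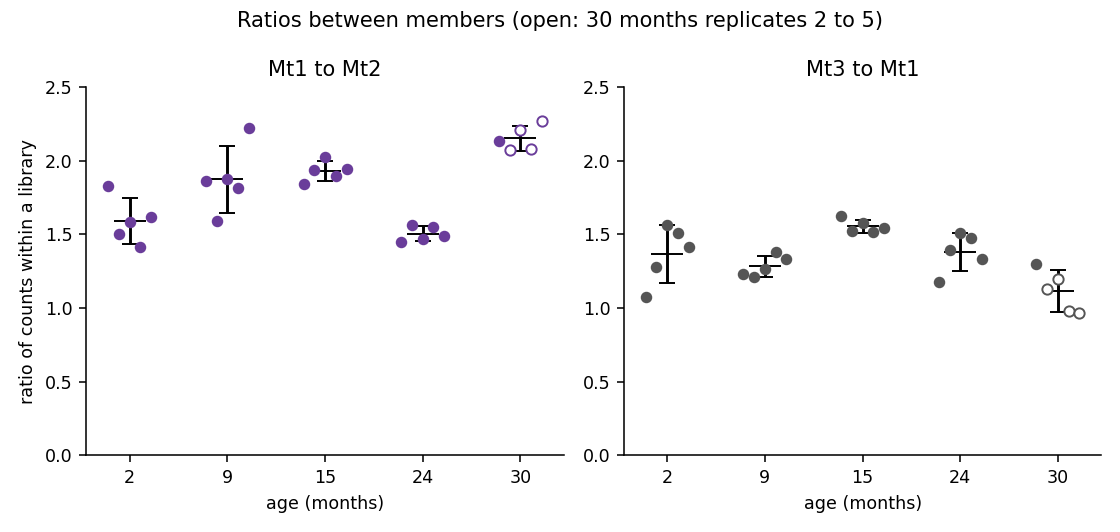
Ratio of the counts of Mt1 to Mt2 (left) and Mt3 to Mt1 (right) in each library by age in months, with the mean (bar) and SD of 5 libraries; open points are replicates 2 to 5 at 30 months. The ratio of Mt1 to Mt2 is between 2.07 and 2.27 in all 5 libraries at 30 months, against 1.45 to 1.56 at 24 months.

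Within an age, Mt1 moved together with both other members from library to library. Levels were taken as log2 CPM minus the mean of the age, over the 20 libraries from 2 to 24 months, and tested by permutation within ages with adjustment over 30 relations. Mt1 and Mt2 had a Pearson r of 0.83 (n = 20, permutation adjusted p 0.0048) and a Spearman rho of 0.91 (0.0006). Without the 2 libraries farthest from the median, r was 0.87. Mt1 and Mt3 had r of 0.73 (n = 20, permutation adjusted p 0.0157), rho of 0.75 (0.0213) and r of 0.73 without the 2 farthest libraries. Mt2 and Mt3 had r of 0.61 (n = 20, permutation adjusted p 0.156) and rho of 0.59 (0.153). These points share the library, its depth and its base composition. Within ages the GC gap had r of 0.65 with Mt3 (n = 20, permutation adjusted p 0.0104 over 3 relations), but rho was 0.55 (0.0603). Its r was 0.26 with Mt1 and 0.22 with Mt2 (0.442 and 0.472). On levels with the GC offset the r of Mt1 was 0.82 with Mt2 and 0.75 with Mt3 (permutation adjusted p 0.0105 and 0.0141).

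**Figure D5:**
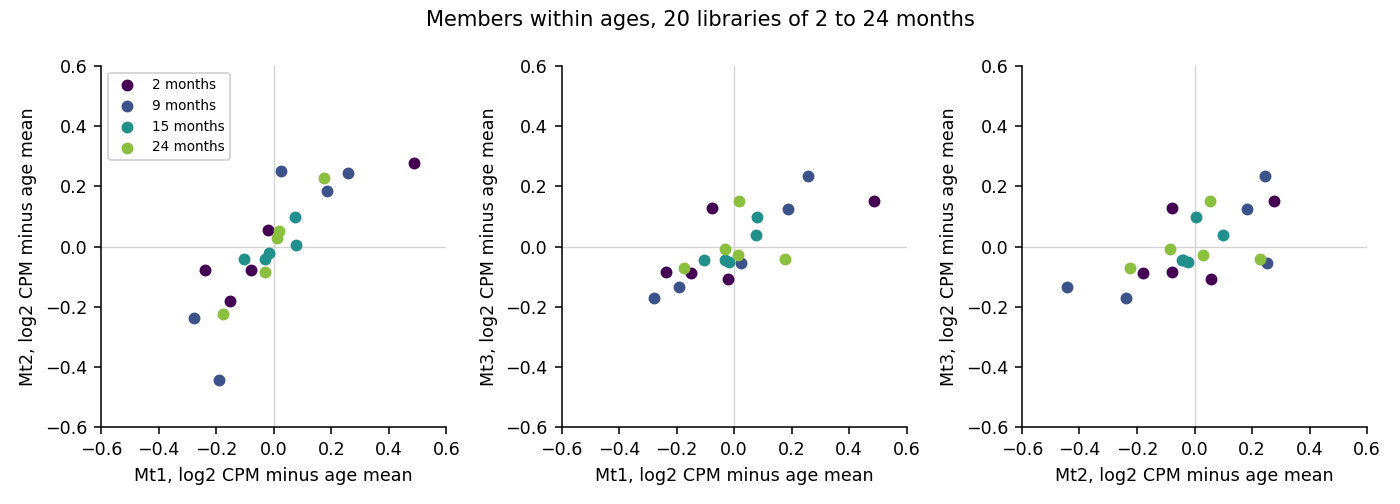
Each point is 1 of the 20 libraries from 2 to 24 months, placed by log2 CPM minus the mean of its age for 2 members, with 1 colour per age. The points of Mt1 against Mt2 lie nearest to a line; the rightmost point is replicate 1 at 2 months.

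Fkbp5, a chaperone gene that glucocorticoids induce, followed both inducible members within ages. Its r was 0.78 with Mt1 (n = 20, permutation adjusted p 0.014; rho 0.68, 0.0348) and 0.67 with Mt2 (0.014; rho 0.68, 0.0358), and 0.34 with Mt3 (0.461). Without the 2 libraries farthest from the median the r with Mt1 and with Mt2 was 0.53 each (permutation adjusted p 0.308), so the call was lost without them. The other glucocorticoid targets, Tsc22d3 and Sgk1, had r between -0.08 and 0.40 with the members. Slc30a1, which encodes the zinc exporter that Mtf1 also induces, had r of 0.06 with Mt1, 0.25 with Mt2 and -0.15 with Mt3. Alb had r of -0.05 with Mt1, -0.15 with Mt2 and 0.34 with Mt3. Aqp4, the water channel gene of astrocyte endfeet, had r of -0.73 with Mt1, -0.58 with Mt2 and -0.62 with Mt3 (n = 20, permutation adjusted p 0.102, 0.156 and 0.102). Without the 2 farthest libraries these were -0.24, -0.33 and -0.33. None of these passed the adjusted test, nor did any relation with Gfap, Serpina3n or Ttr.

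The genes whose pattern was most like each member were taken by Pearson r within ages over the same 20 libraries, among 12881 protein-coding genes with a mean of at least 2 CPM. For Mt1 they were Gstm1 (r 0.88), which encodes a glutathione transferase, the astrocyte aldolase gene Aldoc (0.87), the ferritin heavy chain gene Fth1 (0.87), Fam107a (0.86) and Vwf (0.86), the gene of von Willebrand factor. For Mt2 they were Apod (0.85), which encodes apolipoprotein D, the myelin genes Mal (0.85) and Mobp (0.84), Etnppl (0.84), a phospholyase gene of astrocytes, and Rhob (0.82). For Mt3 they were 2410015M20Rik (0.85), the fatty acid transporter gene Slc27a1 (0.83), the astrocyte neurotensin receptor gene Ntsr2 (0.83), Rpl37a (0.83) and Cbx7 (0.83). By Spearman's rho, 1 of the 5 genes of Mt1, 3 of the 5 of Mt2 and 3 of the 5 of Mt3 were again among the first 5. Library depth and base composition are shared by all these values.

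Where Mt2 rose most, no gene of the zinc and copper lists was called over 25 libraries, while the 21-library fit called genes in all 4 lists. Comparing 24 with 15 months over 25 libraries, 0 of 9 tested exporters of the Slc30 family, 0 of 14 importers of the Slc39 family, 0 of 8 genes of metal-responsive transcription and 0 of 13 genes of copper handling passed edgeR's test in either direction. The background was 1.13% of all genes, and 0 calls in lists of this size is near that share. At an unadjusted p under 0.05, 1 exporter and 1 importer were lower and 0 genes of the other 2 lists passed, where 16.4% of all genes did, and DESeq2 and limma-voom called 0 in all 4 lists. In the 21-library fit, where 21.6% passed, the exporters had 1 higher and 2 lower, and the importers also had 1 and 2. Metal-responsive transcription had 1 higher and 3 lower, and copper handling had 0 and 1. The median log2 fold changes of the 4 lists were -0.05, 0.01, -0.08 and 0.04 over 25 libraries, beside 0.01 over all genes tested. Slc30a1 had 54.2 CPM at 2 months and fell by 0.22 to 9 months on the log2 scale (edgeR adjusted p 0.0378). Its mean was 49.9 CPM at 15 months and 52.1 at 24 months. Mtf1, which was counted in the copper handling list, was named for its role and not by the rule for naming genes. It had a log2 fold change of -0.08 ± 0.05 (SE) from 15 to 24 months (edgeR adjusted p 0.511).

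From 2 to 30 months over 25 libraries, 1 exporter was higher and 6 lower, 6 importers were higher and 5 lower, 1 gene of metal-responsive transcription was higher and 3 lower, and 3 genes of copper handling were higher and 5 lower. Of all genes 58% passed. In the 21-library fit Slc30a1 was lower, at -0.30 (edgeR adjusted p 0.0223), and no other gene of the 4 lists passed, where 8.53% of all genes did. Slc39a12, a zinc importer of astrocytes, was at 68.7 CPM at 2 months and 46.9 at 30 months, with a log2 fold change of -0.55 over 25 libraries and -0.17 in the 21-library fit (edgeR adjusted p 0.0801). Sod1, the copper and zinc superoxide dismutase gene, was at 110 CPM at 2 months and 131 at 30 months, with a log2 fold change of 0.25 over 25 libraries and 0.12 in the 21-library fit (edgeR adjusted p 0.135).

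Genes that respond to other signals known to induce Mt1 and Mt2 were set beside the same comparison. By edgeR's adjusted test over 25 libraries 0.882% of all genes rose and 0.247% fell. Of 14 genes of the STAT3 and acute phase response 2 rose and 0 fell over 25 libraries, with a median log2 fold change of 0.22. In the 21-library fit 6 were higher and 2 lower, where 21.6% of all genes passed. Gfap, an astrocyte filament gene, had a mean of 220.7 CPM at 15 months and 361.9 at 24 months (log2 fold change 0.71, edgeR adjusted p 0.00283, and 1.82e-05 over 21 libraries). Serpina3n, a protease inhibitor gene of reactive astrocytes, had 18.8 and 40.9 CPM (1.12, 0.0196, and 0.000137 over 21 libraries). Unlike the members, neither had a lower mean at 15 than at 2 months. Of 16 genes of oxidative stress and Nrf2, 1 rose over 25 libraries, Gstm1, from 120 to 155 CPM (0.37, edgeR adjusted p 0.0429, and 0.000504 over 21 libraries). Over 21 libraries 7 of the 16 were higher and 1 lower. Of 15 glucocorticoid response genes 0 passed over 25 libraries, with a median of 0.28. At an unadjusted p under 0.05 by edgeR 4 were higher and 0 lower, DESeq2 and limma-voom called 0, and 2 were higher and 1 lower in the 21-library fit. At that unadjusted threshold 5 of the 14 STAT3 genes and 7 of the 16 Nrf2 genes were higher and 0 lower. Of all genes 11.3% were higher and 5.05% lower there. DESeq2 called 3 of the STAT3 genes and 1 of the Nrf2 genes as higher, and limma-voom called 2 and 1. Per1, a clock gene that glucocorticoids induce, had 103 CPM at 2 months, 67.6 at 15 months and 82.7 at 24 months, with a log2 fold change of -0.61 from 2 to 15 months (edgeR adjusted p 0.0652, and 0.0207 over 21 libraries).

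Cell type markers were set beside the rise from 15 to 24 months. Of 15 astrocyte markers 0 passed over 25 libraries and 6 were higher and 1 lower in the 21-library fit, where 10.7% of all genes passed as higher and 10.8% as lower. Their summed CPM was 7593 to 7903 at 15 months and 7560 to 8033 at 24 months. These ranges overlapped, while those of the members did not. The astrocyte list did not hold Gfap or Serpina3n, which were listed under STAT3 and rose (log2 fold change 0.71 and 1.12). Of 12 neuron markers, 12 endothelium and pericyte markers, 10 leptomeningeal fibroblast markers, 10 choroid plexus markers, 7 ependyma markers and 5 red blood cell markers, 0 passed over 25 libraries. The 21-library fit called 2 neuron and 2 endothelium and pericyte markers in each direction, 3 ependyma markers as higher and 0 of the other 3 lists. DESeq2 and limma-voom also called 0 of these and of the astrocyte markers. At an unadjusted p under 0.05 by edgeR 6 astrocyte, 1 neuron, 3 endothelium and pericyte, 1 choroid plexus, 5 ependyma and 2 red blood cell markers were higher, and 2 endothelium and pericyte markers were lower. Of all genes 11.3% were higher and 5.05% lower at that threshold. Summed choroid plexus markers were 456 to 633 CPM at 15 months and 641 to 765 CPM at 24 months, and summed ependyma markers were 19.4 to 22.1 and 22.5 to 30.2 CPM. Both sums were higher at 24 months without overlap, and their part in the rise of the members was not tested. Most of the choroid plexus sum was Ttr alone, at 368 to 525 CPM at 15 months and 546 to 645 CPM at 24 months. Of 18 liver markers, only Trf rose over 25 libraries (log2 fold change 0.43, edgeR adjusted p 0.0495). Whether its RNA came from liver or from brain was not tested. The summed CPM of the liver markers was 28.5 to 170 at 15 months and 83.7 to 322.2 at 24 months.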

How the data were processed

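Per the submitters' processing notes, bases were called with CASAVA 1.7 and reads aligned with STAR 2.4.1d to GRCm38 and counted with featureCounts 1.4.6-p4; per the labels' protocols, libraries were made with a TruSeq RNA kit. The annotation release and strand setting are not given in the sources used here. The deposited counts are whole numbers per Ensembl gene. The RPKM values the authors deposited were not used for results, because only 4% of the values matched the total of the library they belong to, with factors of 0.569 to 1.76 in the rest.

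Counts of 25 libraries, 17800113 to 31261121 each, were filtered (filterByExpr), scaled by TMM and tested with edgeR 4.0.16 in R 4.3.3 (robust quasi-likelihood, 1 mean per age, all 25 libraries), with Benjamini-Hochberg adjustment over 17799 genes. The line over 20 libraries was fitted on 17472 genes and the 21-library fit on 19208. CPM is the count per 1000000 of the TMM-scaled library total; log2 CPM used a prior count of 2. Replicates differed beyond counting error, with chi-square per degree of freedom of 1.55 to 6.97 at 2 to 24 months and 4.97 to 146 at 30 months. The GC offset was a lowess curve (span 0.2) of log2 ratio on GC content of the longest transcript, per library. Ratios were tested by exact permutation and relations by 100000 permutations within ages. On simulated counts of 9 with 2 months (17799 genes) the test recovered 99% of genes changed 1.5-fold and 100% of those changed 2-fold. It made 7 false calls. The simulation gave every gene the same median spread, had no shift with GC content and changed no weakly expressed gene. It checks that the test runs correctly and does not give its power in these data. Alternatives were RLE and total-count scaling, no filter on low counts, DESeq2 1.42.0, limma-voom (limma 3.58.1), fits of the 2 ages alone, of 21 or of 20 libraries, a liver covariate, the GC offset and leaving out each library; the 20-library fit, the GC offset in 21 libraries and in the relations were chosen after seeing the data. Promoters are from RefSeq (GRCm38.p6; 3 of 3 members matched) and coding sequences from the Ensembl gene models and genome of GRCm38.

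The members, lists and tests were chosen with earlier results of these data known. Named genes were the members, the 5 genes most alike to each, and from each of 15 lists up to 3 with the smallest p for any difference. Metal genes past the threshold against 2 months were added. The lists held 180 different genes, 177 of them tested, and lists could share a gene. Only named genes that touch a result are printed.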

Additional observations from a re-analysis of the deposited data

Results flagged for a closer look

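In 25 groups of 5 libraries (the CPM of each member and the 2 ratios, at each age), 2 libraries lay farther from the rest of their age than Dixon's limit of 0.71 for the gap over the range; chance alone flags about 1 group in 20. Mt1 in replicate 1 at 2 months was at 127.2 CPM against 76.9 to 89.5 CPM in the other libraries of that age (gap over range 0.75). Without that library the log2 fold change of Mt1 from 2 to 15 months was -0.19, beside -0.34 with it, and neither passed edgeR's test. Mt3 in replicate 3 at 24 months was at 170.2 CPM against 145.8 to 152.4 CPM in the others (0.73). Its GC gap, 0.16, was the highest of the 21 libraries that did not stand apart.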

How the results depend on the processing

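Of 287 values computed under alternatives for the age comparisons, ratios and member relations, without those that leave out 1 library, 232 kept their direction and their side of the threshold. RLE scaling and the liver covariate changed no call of the members. No paired analysis was possible because the replicate numbers were given in accession order and pair nothing. Log2 fold changes follow, and the cause of each change was not tested. Total counts alone called Mt1 30 with 24 months (0.42) and the slope of Mt3 (0.0141), and no filter turned Mt3 9 with 2 months to 0.000318. The GC offset turned Mt3 30 with 2 (-0.047), Mt2 30 with 2 (-0.037), Mt3 15 with 9 (0.0108) and Mt3 30 with 24 months (-0.32, which passed), and called Mt2 15 with 2 (-0.55), Mt3 24 with 2 (0.27), Mt3 24 with 15 (0.29), Mt2 30 with 24 months (-0.38) and the slope of Mt3 (0.0125). Fits of the 2 ages alone called Mt2 15 with 2 (-0.60), Mt3 24 with 2 (0.31), Mt2 24 with 2 (0.38), Mt3 24 with 15 (0.43) and Mt1 24 with 15 months (0.61), and lost Mt3 30 with 2 months (0.37). The 21-library fit called Mt2 15 with 2 (-0.60), Mt3 24 with 2 (0.31), Mt2 24 with 2 (0.38), Mt2 15 with 9 (-0.46), Mt3 24 with 15 (0.43), Mt1 24 with 15 (0.61) and Mt2 30 with 24 months (-0.94), and turned Mt3 (-0.19), Mt2 (-0.56) and Mt1 (-0.15) at 30 with 2 months and Mt3 (-0.50) and Mt1 (-0.43) at 30 with 24 months. With the GC offset in that fit, Mt2 15 with 2 (-0.54), Mt3 24 with 2 (0.27), Mt3 24 with 15 (0.29), Mt1 24 with 15 (0.56) and Mt2 30 with 24 months (-0.91) were called. Turned there were Mt3 (-0.25), Mt2 (-0.57) and Mt1 (-0.14) at 30 with 2, Mt3 15 with 9 (0.0109), and Mt3 (-0.53) and Mt1 (-0.41) at 30 with 24 months. The 20 libraries of 2 to 24 months called Mt2 15 with 2 (-0.60), Mt3 24 with 2 (0.31), Mt2 24 with 2 (0.38), Mt2 15 with 9 (-0.46), Mt3 24 with 15 (0.43) and Mt1 24 with 15 months (0.61). DESeq2 called Mt2 15 with 2 (-0.59), Mt3 24 with 15 (0.41), Mt1 24 with 15 (0.60), Mt1 30 with 24 months (0.39) and the slope of Mt3 (0.013). Limma-voom turned Mt3 30 with 24 months (-0.0027) and called the slope of Mt3 (0.0134). The log2 ratio of Mt3 to Mt1 at 30 against 2 months moved from -0.29 to -0.061 with replicate 1 alone.

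With each library left out in turn, the values ran from 0.57 to 0.65 for Mt1 24 with 15, 0.17 to 0.51 for Mt1 30 with 24, -0.0066 to 0.20 for Mt1 9 with 2, -0.65 to -0.53 for Mt2 15 with 2, 0.0434 to 0.35 for Mt2 30 with 2, 0.39 to 0.46 for Mt3 24 with 15, 0.27 to 0.35 for Mt3 24 with 2, 0.21 to 0.44 for Mt3 30 with 2, -0.11 to 0.13 for Mt3 30 with 24 and -0.070 to 0.0357 for Mt3 9 with 2 months. They ran from 0.0105 to 0.0153 for the slope of Mt3, from 0.24 to 0.34 and 0.40 to 0.49 for the ratio of Mt1 to Mt2 at 15 and 30 months, and from 0.12 to 0.25 and -0.0646 to 0.0740 for the ratio of Mt3 to Mt1 at 15 and 24 months. Of the relations with other genes, without the 2 farthest libraries r was -0.14 for Mt1 with Slc30a1, -0.17 with Tsc22d3, 0.25 with Sgk1 and 0.000127 with Alb, -0.22 for Mt2 with Slc30a1, -0.0163 with Tsc22d3 and -0.18 for Mt3 with Tsc22d3; with the GC offset it was -0.000833 for Mt2 with Sgk1 and -0.0011 for Mt3 with Gfap. Genes called over 25 and 21 libraries were 423 and 2540 for 9 with 2 months, 224 and 2162 for 15 with 2, 931 and 3952 for 24 with 2, 10324 and 1639 for 30 with 2, 3 and 1823 for 15 with 9, 201 and 4143 for 24 with 15 and 9701 and 739 for 30 with 24 months. With 5 libraries per age, a ratio cannot reach a p below 0.00794.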
